A study of Mus musculus with 96 samples.

Results

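The genes described here repair damaged DNA bases, bulky lesions and DNA breaks outside the mismatch repair pathway. They were chosen by name from a list of repair genes, and 41 of the 48795 genes of the deposited count table carry those names. Of them, 13 belong to base excision repair, 15 to nucleotide excision repair and 11 to break repair, and the other two, Tdp1 and Aptx, clean blocked strand ends. All 41 passed the low-count filter in striatum and 40 passed it in cortex, where Neil3 fell under it.

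Striatum and cerebral cortex were taken from 48 C57BL/6 mice aged 6 months for RNA sequencing. The Q140 allele is a huntingtin knock-in with an expanded CAG repeat, which these mice carry in the heterozygous state, and Pms1 encodes a MutL homologue of the mismatch repair pathway. The groups were Q140 mice homozygous for the Pms1 mutation (Q140 Pms1-/-), Q140 mice heterozygous for it (Q140 Pms1+/-), Q140 mice with intact Pms1, Pms1-/- mice, Pms1+/- mice and wild-type (WT) mice. Each group held 8 animals, 4 males and 4 females, and each animal gave a library of each tissue. The series' own description gives 16 animals per group, and 8 per group were analysed here. The labels do not say how the Pms1 mutation was made or which tissues it affects.

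In base excision repair a DNA glycosylase removes a damaged base, an endonuclease cuts the exposed sugar, and a polymerase and a ligase fill and seal the gap. In nucleotide excision repair a lesion is found either genome-wide or by a stalled RNA polymerase, the helix is opened, and a stretch around the lesion is cut out. Broken ends are either joined directly, through the Ku heterodimer and its kinase, or processed by a nuclease complex for recombination, while large kinases signal the damage. Neurons do not divide, so direct end joining is the main route for their breaks. The oxidised base glycosylase Ogg1, Fen1 and the ligase machinery have been studied as possible contributors to CAG repeat expansion in Huntington's disease models.

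Library totals ranged over 27993751 to 56364535 counted reads with a median of 39928025, and the members took 0.0996% to 0.125% of a library. Summed markers of cortical projection neurons reached 31.0 to 72.3 CPM, reads of a gene scaled to the library total, in striatum and 1747 to 2141 CPM in cortex. Summed markers of medium spiny neurons, the main striatal neuron, reached 7912 to 14312 CPM in striatum and 411 to 506 CPM in cortex, so each tissue carried its label. Pms1 itself ranged over 3.08 to 4.47 CPM in Pms1-/- striatum and 4.89 to 5.85 CPM in WT striatum, a log2 fold change of -0.43 (SE 0.08). In cortex it ranged over 2.95 to 4.05 CPM in Pms1-/- mice and 3.30 to 4.37 CPM in WT mice, so transcript from the locus was still counted in the null animals of both tissues. Animals carry a code in their sample titles, whose meaning the labels do not give. Codes with a first number of 16 or more were carried by all 8 Q140 Pms1-/- mice, 1 Q140 Pms1+/- mouse, 3 Q140 mice, all 8 Pms1-/- mice, 0 Pms1+/- mice and 2 WT mice. Late codes and the Pms1-null genotype therefore overlap closely.

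In WT mice most members were expressed at different levels in striatum and cortex. Levels between genes are given as FPKM, which is scaled by gene length, as means of 8 animals. Ddb1, part of the ligase that marks ultraviolet lesions and of a general ubiquitin ligase, was the most abundant member, with a mean of 61.1 FPKM in striatum and 58.1 FPKM in cortex. Apex1, the main endonuclease of base excision repair, followed with 20.4 FPKM in striatum and 17.3 FPKM in cortex. The sensor of single-strand breaks, Parp1, averaged 14.6 FPKM in striatum and 15.9 FPKM in cortex, and the gap-filling polymerase Polb 12.5 FPKM in striatum and 11.8 FPKM in cortex. In striatum Nbn was the highest break repair gene, at 7.42 FPKM, and Ercc8 was the lowest of nucleotide excision repair. At the low end, the recombination mediator Brca2 averaged 0.345 FPKM in striatum and 0.434 FPKM in cortex. The glycosylase Neil3, known from dividing cells, averaged 0.0724 FPKM in striatum and 0.00822 FPKM in cortex.

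By edgeR's quasi-likelihood test with Benjamini-Hochberg adjustment over all genes, 34 of 41 members (82.9%) differed between WT striatum and WT cortex, 21 higher (51.2%) and 13 lower (31.7%) in striatum. Of all genes tested 76% differed, 38.5% higher and 37.5% lower. The share of members was thus near that of all genes. Brca1, which acts in recombination, ranged over 0.477 to 0.689 FPKM in striatum and 0.0968 to 0.197 FPKM in cortex, a log2 difference of 2.00 (SE 0.10). The groups did not overlap, and Brca1 was higher in striatum in all 8 animals. Neil2, a glycosylase for oxidised bases, ran the other way, with 0.275 to 0.523 FPKM in striatum and 0.926 to 2.02 FPKM in cortex, a log2 difference of -2.05 (SE 0.12), again without overlap.

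The other large regional differences were between 0.30 and 0.71 on the log2 scale, except that of Neil3. Higher in striatum were Prkdc, the kinase of end joining (0.71, SE 0.05), Xpa, which verifies the lesion in nucleotide excision (0.70, SE 0.07), and Rpa2, a subunit of the single-strand binding protein (0.61, SE 0.05). Neil3 was also higher in striatum by 3.07 (SE 0.43), but WT cortex held 0 to 4 reads of it per library, and the fold rests on those few reads. Lower in striatum were Neil1, a further oxidised-base glycosylase (-0.49, SE 0.07), Ercc8, a substrate receptor of transcription-coupled repair (-0.43, SE 0.04), Brca2 (-0.33, SE 0.13) and the flap nuclease Fen1 (-0.30, SE 0.05). The summed dividing-cell markers ranged over 13.8 to 30.2 CPM in WT striatum and 16.7 to 18.4 CPM in WT cortex, with 7 of 10 higher and 2 lower in striatum. Their part in the levels of Brca1 and Neil3 was not tested. In bulk tissue, more cells of a type and more RNA per cell cannot be told apart.

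**Figure D1:**
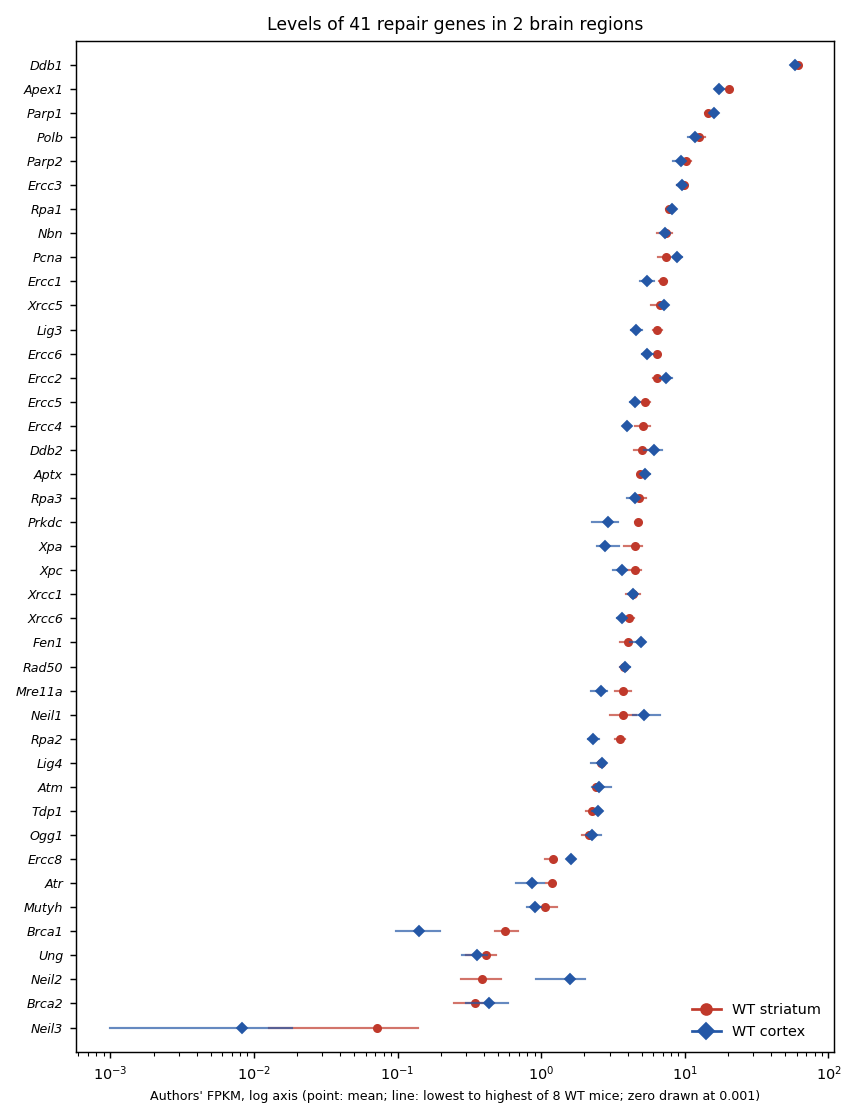
Level of each member in FPKM on a log axis in WT striatum and WT cortex; the point is the mean and the line runs over the lowest to the highest of 8 animals (a value of 0 is drawn at 0.001). Ddb1 lies highest in both tissues at 61.1 FPKM in striatum and 58.1 FPKM in cortex, Brca1 lies to the right for striatum and Neil2 for cortex.

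In the striatum of Q140 mice, 14 of 41 members (34.1%) passed the test against WT, 12 higher and 2 lower. Among all genes tested 31.3% passed, 15.9% higher and 15.4% lower, so the members' share as a whole was near the background while 29.3% were higher and 4.88% lower. The median log2 fold change was 0.07 over the members and 0.01 over all genes tested. Of the members 31 had a positive fold change, and 20 had an unadjusted p under 0.05, as had 7618 of the 18890 genes tested in striatum. The animals with early codes alone gave 16 calls, 12 higher and 4 lower, where 26.1% of all genes passed. Those with late codes alone, 3 Q140 and 2 WT mice, gave 2 calls, Xrcc5 and Prkdc, both higher, where 4.26% of all genes passed. The split by direction depends on how libraries are scaled. Without composition scaling 28 members passed, 27 higher and 1 lower, against 12 and 2 with it, and then 42% of all genes passed and their median log2 fold change was 0.09.

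**Figure D2:**
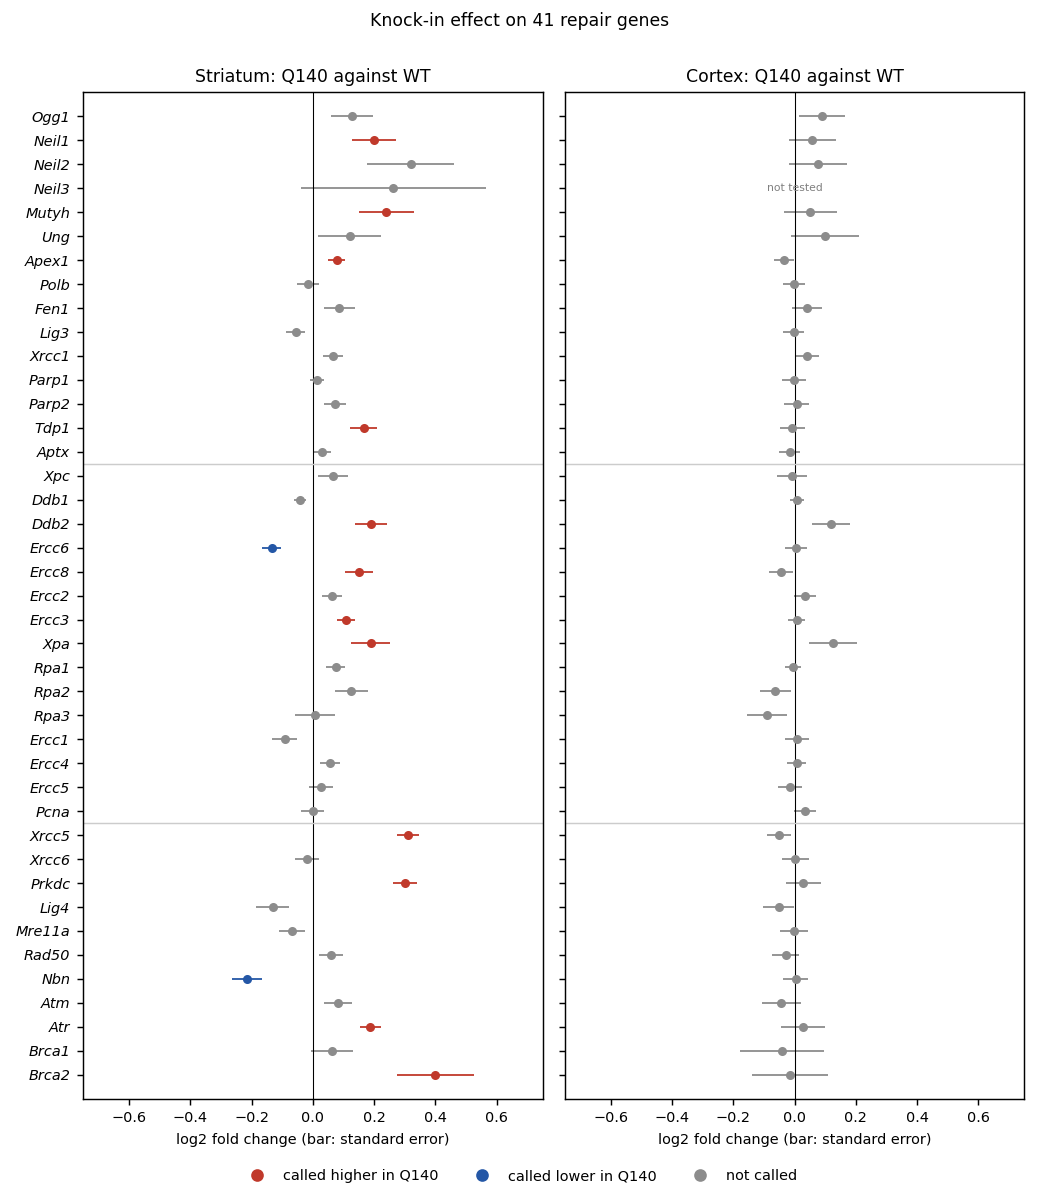
log2 fold change, Q140 against WT, with its SE for each member in striatum (left) and cortex (right); red points are higher, blue points lower and grey points did not pass the test. In striatum 12 are red and 2 blue, and in cortex none passed.

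Medium spiny neuron markers moved with the same comparison: 9 of 10 were lower and 1 higher, and their sum was 7912 to 9095 CPM in Q140 striatum and 12588 to 14236 CPM in WT striatum. Lower too were 6 of 8 microglial markers (371 to 431 CPM in Q140 striatum, 427 to 462 CPM in WT striatum) and 4 of 7 endothelial and mural markers (261 to 312 CPM in Q140 striatum, 299 to 333 CPM in WT striatum). Of 6 general neuron markers 4 were lower and 1 higher, 2 of 8 astrocyte and 1 of 8 oligodendrocyte markers were lower, and 1 of 6 oligodendrocyte precursor markers, 2 of 7 cortical projection neuron markers and 1 of 10 dividing-cell markers were higher. The astrocyte sum was 3675 to 4013 CPM in Q140 striatum and 3986 to 4347 CPM in WT striatum. No marker was at 0 in every library. The part of these cell types in the members' changes was not tested.

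The smallest adjusted p-values belonged to Xrcc5 and Prkdc, which act in direct end joining. The products of Xrcc5 (Ku80) and Xrcc6 (Ku70) pair to form the Ku ring that holds a broken end, and Prkdc encodes the catalytic kinase that Ku recruits. Xrcc5 (ENSMUSG00000026187) lies on chromosome 1 at 72307421 to 72394952 of GRCm38, 19.0 Mb from Pms1. Xrcc6 (ENSMUSG00000022471) lies on chromosome 15 at 81987835 to 82040085, and Prkdc (ENSMUSG00000022672) on chromosome 16 at 15637866 to 15842235. The 250 bases before the start of Xrcc5 and Xrcc6 are shown because the genes encode partners of 1 complex and Xrcc5 passed the test while Xrcc6 did not, and those of Ercc6 because it was 1 of the 2 members that fell. They come from RefSeq on GRCm38.p6, at chr1:72307171-72307420, chr15:82016119-82016368 and chr14:32513271-32513520, all on the plus strand, 5′ to 3′. The RefSeq start of Xrcc6 lies inside the span that GENCODE gives this gene. Capitals mark matches, on either strand, to the E box CACGTG, the CCAAT box and the GC box GGGCGG.
Xrcc5: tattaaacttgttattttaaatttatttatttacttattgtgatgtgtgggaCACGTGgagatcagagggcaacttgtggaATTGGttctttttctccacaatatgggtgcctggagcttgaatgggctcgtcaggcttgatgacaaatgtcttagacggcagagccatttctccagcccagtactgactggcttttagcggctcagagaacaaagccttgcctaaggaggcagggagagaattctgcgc
Xrcc6: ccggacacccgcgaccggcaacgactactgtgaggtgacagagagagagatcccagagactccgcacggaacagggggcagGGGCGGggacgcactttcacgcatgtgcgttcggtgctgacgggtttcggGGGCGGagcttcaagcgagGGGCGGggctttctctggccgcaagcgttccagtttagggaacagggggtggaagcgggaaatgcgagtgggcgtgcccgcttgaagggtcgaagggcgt
Ercc6: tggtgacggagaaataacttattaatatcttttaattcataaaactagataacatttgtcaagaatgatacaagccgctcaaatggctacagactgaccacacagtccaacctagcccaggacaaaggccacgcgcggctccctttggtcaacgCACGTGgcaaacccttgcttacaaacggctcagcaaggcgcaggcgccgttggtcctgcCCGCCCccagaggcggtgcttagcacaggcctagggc

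The Xrcc5 window had a GC content of 44.8%, an E box 198 bases and a reversed CCAAT box 169 bases before the start. The Xrcc6 window had a GC content of 65.2% and GC boxes 169, 119 and 100 bases before the start, with neither an E box nor a CCAAT box. The Ercc6 window, at 52.4% GC, held an E box 96 bases and a reversed GC box 37 bases before the start. Among 32817 promoter windows of the same length, 6.02% held CACGTG, 33.8% CCAAT and 32.7% GGGCGG. Of the 33 members with a window, 9 held CACGTG, 18 CCAAT and 21 GGGCGG. A member was counted once if any of its windows held the letters, whereas the shares are of windows. The counts and the shares are therefore unlike measures. The NRF1 palindrome, the CRE core TGACGTCA and TATAAA were also searched, occurred in 0.777%, 1.55% and 12.4% of all windows, and were in none of these 3. A match is a description of these letters and no evidence of binding.

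Xrcc5 had 20.1, 21.9 and 23.9 CPM (lowest, median and highest of 8) in Q140 striatum and 15.4, 18.1 and 19.5 CPM in WT striatum. The groups did not overlap, and the log2 fold change was 0.31 (SE 0.04, edgeR adjusted p = 9.2e-10). Prkdc had 66.9, 79.1 and 86.7 CPM in Q140 striatum and 61.0, 64.0 and 66.7 CPM in WT striatum, again without overlap, and its log2 fold change was 0.30 (SE 0.04, edgeR adjusted p = 1.8e-08). Both remained past the threshold in all 26 alternative settings tried for this comparison, including those that leave out an animal and those restricted to early or late codes.

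Xrcc6 had 17.0, 18.8 and 19.2 CPM in Q140 striatum and 16.8, 18.7 and 19.8 CPM in WT striatum. Its log2 fold change of -0.02 (SE 0.04) did not pass, with nearly the same range in both genotypes. Lig4, the ligase that seals joined ends, had 11.1, 12.5 and 14.9 CPM in Q140 striatum and 13.0, 13.6 and 15.0 CPM in WT striatum, a log2 fold change of -0.13 (SE 0.05, adjusted p = 0.0606). Across the 4 end-joining genes, therefore, 2 rose and the others did not pass. The ratio of Xrcc5 to Xrcc6 in FPKM, which no library scaling affects and which was chosen after these values were seen, was 1.97 to 2.28 in Q140 striatum and 1.57 to 1.88 in WT striatum.

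**Figure D3:**
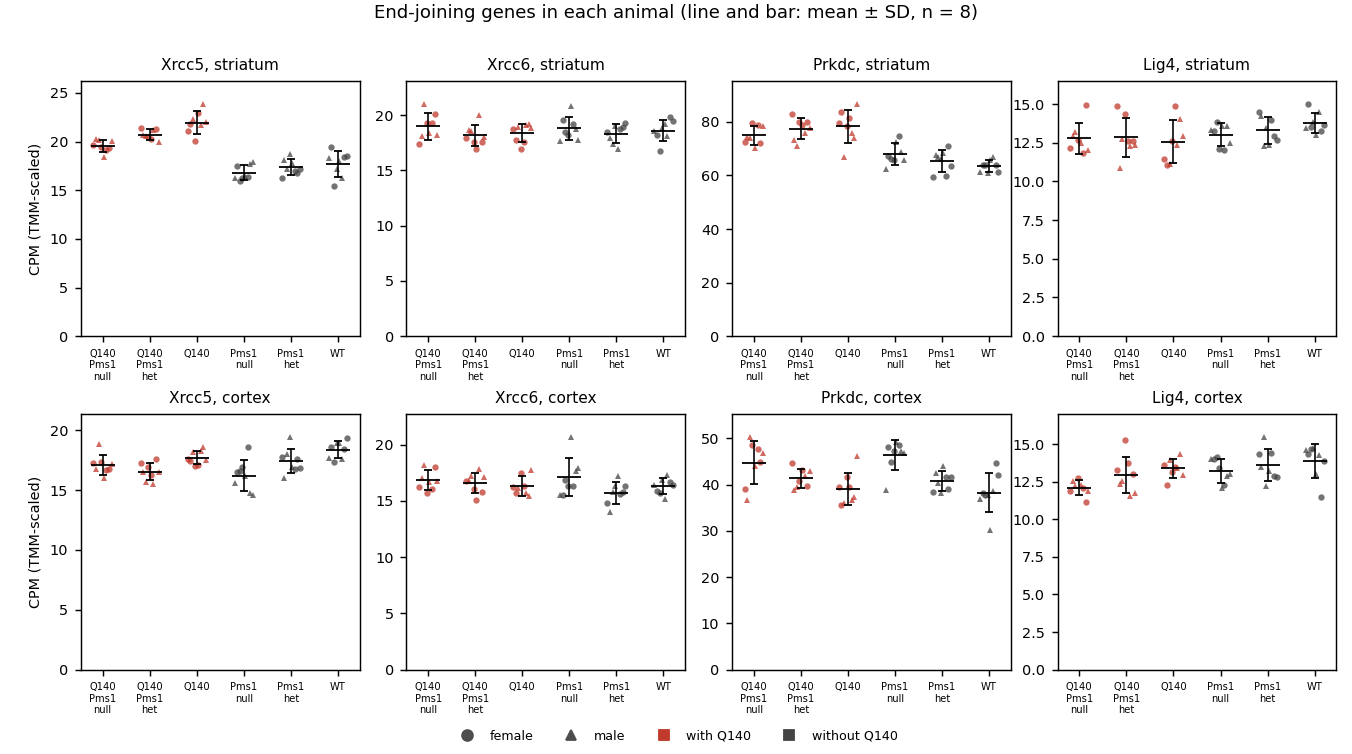
CPM of Xrcc5, Xrcc6, Prkdc and Lig4 in each animal, striatum above and cortex below, with genotypes running left to right as Q140 Pms1-/-, Q140 Pms1+/-, Q140, Pms1-/-, Pms1+/- and WT; circles are females, triangles males, red groups carry Q140, and the line and bar give the mean and SD of 8. In striatum the Xrcc5 and Prkdc points of Q140 mice, 20.1 to 23.9 CPM and 66.9 to 86.7 CPM, lie above all of WT, while Xrcc6 does not separate.

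Of the other break repair genes, the kinase Atr, which responds to single-stranded DNA, had 30.4, 31.8 and 34.7 CPM in Q140 striatum and 26.4, 28.4 and 29.9 CPM in WT striatum. The groups did not overlap, and the log2 fold change was 0.19 (SE 0.03, edgeR adjusted p = 3e-05). With late codes alone Atr was at 0.06 and did not pass (edgeR adjusted p = 0.77). Atm, the kinase for double-strand breaks, did not pass (0.08, SE 0.05). Members with groups that did not overlap were thus Xrcc5, Prkdc and Atr, 3 of 41, where 8.13% of all genes had groups that did not overlap.

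Nbn, which with Rad50 and Mre11a forms the complex that trims broken ends, fell. It had 14.4, 16.7 and 18.5 CPM in Q140 striatum and 16.6, 19.4 and 21.2 CPM in WT striatum, a log2 fold change of -0.22 (SE 0.05, edgeR adjusted p = 0.00053). The groups overlapped, with 4 Q140 animals below all WT animals. With late codes alone Nbn was at -0.14 and did not pass (edgeR adjusted p = 0.544). Its partners did not pass, at 0.06 (SE 0.04) for Rad50 and -0.07 (SE 0.04) for Mre11a.

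Brca2 had 4.91, 6.50 and 7.36 CPM in Q140 striatum and 3.47, 4.58 and 6.41 CPM in WT striatum, a log2 fold change of 0.40 (SE 0.13, edgeR adjusted p = 0.0124), the largest of the members that passed and among the least abundant. Brca1 did not pass (0.06, SE 0.07). The summed dividing-cell markers were 23.2 to 36.7 CPM in Q140 striatum and 13.8 to 30.2 CPM in WT striatum, and their part in the Brca2 value was not tested. In the animals with late codes, 3 Q140 and 2 WT, the fold change of Brca2 was -0.04. Tdp1, which removes topoisomerase remnants from strand ends, rose by 0.17 (SE 0.05, edgeR adjusted p = 0.00337), with 12.8, 14.2 and 15.1 CPM in Q140 striatum and 11.3, 12.7 and 14.0 CPM in WT striatum. The Tdp1 call was lost with early codes alone (0.14, edgeR adjusted p = 0.0533) and with late codes alone (0.30, edgeR adjusted p = 0.117). Aptx, which removes adenylate from failed ligations, did not pass (0.03, SE 0.03).

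**Figure D4:**
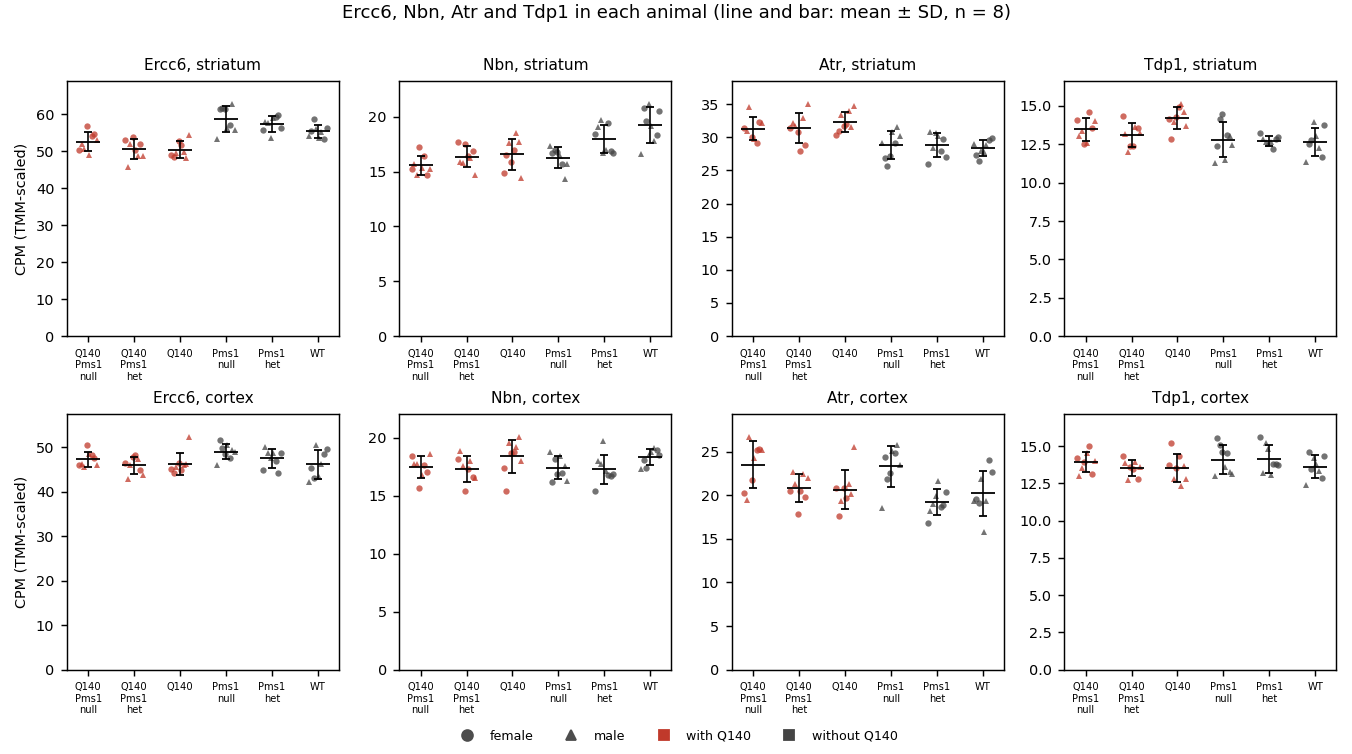
CPM of Ercc6, Nbn, Atr and Tdp1 in each animal, striatum above and cortex below, with the genotype order, symbols, mean and SD as for the end-joining genes. In striatum Q140 lies above all of WT for Atr (30.4 CPM against at most 29.9 CPM), 6 of 8 Q140 animals lie above it for Tdp1, and 7 of 8 for Ercc6 and 4 of 8 for Nbn lie below it.

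Within nucleotide excision repair the transcription-coupled factors moved in opposite directions. Ercc6 (CSB, ENSMUSG00000054051, chromosome 14 at 32513521 to 32580990), which binds a stalled polymerase, had 48.2, 49.7 and 54.5 CPM in Q140 striatum and 53.2, 55.4 and 58.8 CPM in WT striatum. Of the Q140 animals 7 lay below all WT animals, and the log2 fold change was -0.13 (SE 0.03, edgeR adjusted p = 0.00064). Without composition scaling Ercc6 was -0.06 (adjusted p = 0.104) and no longer passed. Nor did it pass by limma on FPKM (-0.06, limma adjusted p = 0.11) or with late codes alone (-0.03, edgeR adjusted p = 0.901). Ercc8 (CSA), which acts with Ercc6 at the stalled polymerase, rose by 0.15 (SE 0.05, adjusted p = 0.00844), with 9.72, 10.5 and 11.8 CPM in Q140 striatum and 8.45, 9.42 and 10.1 CPM in WT striatum. The Ercc8 call was lost with early codes alone (0.16, edgeR adjusted p = 0.0585) and with late codes alone (0.12, edgeR adjusted p = 0.592).

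Of the genome-wide recognition factors, Ddb2, the subunit that detects ultraviolet lesions, rose by 0.19 (SE 0.05, adjusted p = 0.00357), with 14.1, 15.8 and 18.5 CPM in Q140 striatum and 12.6, 14.3 and 15.2 CPM in WT striatum. Its partner Ddb1 (-0.04, SE 0.02) and the sensor Xpc (0.07, SE 0.05) did not pass. Ercc3 (XPB), a helicase subunit of TFIIH, rose by 0.11 (SE 0.03, adjusted p = 0.00411), with 29.1, 31.2 and 32.8 CPM in Q140 striatum and 26.1, 29.4 and 30.0 CPM in WT striatum, while the other helicase Ercc2 (XPD) was at 0.06 (SE 0.03). Xpa rose by 0.19 (SE 0.06, adjusted p = 0.0189), with 9.03, 9.98 and 10.9 CPM in Q140 striatum and 7.32, 8.92 and 10.0 CPM in WT striatum. Its call was lost in 2 of 16 fits that left out an animal, at an adjusted p of up to 0.0601, and it was at 0.00 with late codes alone. The ranges of these genes overlapped between genotypes. Late codes alone gave 0.15 for Ddb2 (edgeR adjusted p = 0.589) and 0.03 for Ercc3 (edgeR adjusted p = 0.886), and neither passed. The nucleases Ercc1, Ercc4 and Ercc5 and the sliding clamp Pcna gave 0 calls of 4, with fold changes of -0.09, 0.06, 0.03 and 0.00. The replication protein A subunits Rpa1, Rpa2 and Rpa3 did not pass either, at 0.07, 0.13 and 0.01. Ddb2 overlaps exons of Acp2 on the other strand over 23.8% of its exonic length, and no source used here states the strand setting of the counting, so its counts are uncertain. The same holds for Ercc2, which lies opposite the antisense RNA Gm26852 over 24.6% and opposite Klc3 over 17.8% of its exonic length.

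In base excision repair 3 of 13 members passed, all higher, where 31.3% of all genes passed, 15.9% higher. Neil1 rose by 0.20 (SE 0.07, adjusted p = 0.0264), with 7.17, 8.22 and 9.22 CPM in Q140 striatum and 5.86, 6.96 and 8.55 CPM in WT striatum. Mutyh, which removes adenine paired with oxidised guanine, rose by 0.24 (SE 0.09, adjusted p = 0.0346), and Apex1 by 0.08 (SE 0.03, adjusted p = 0.0313). The groups overlapped for all 3, and their calls depended on single animals: leaving out an animal in turn ended the call of Apex1 in 6 of 16 fits, of Mutyh in 9 and of Neil1 in 4. With the first code number as a random block Mutyh was at 0.23 (voom adjusted p = 0.0546), and without the low-count filter it was at 0.24 (edgeR adjusted p = 0.0637), so neither fit called it. Apex1 was at 0.05 with early codes alone (edgeR adjusted p = 0.375) and at 0.11 with late codes alone (edgeR adjusted p = 0.362). In the late-code animals Neil1 was at -0.08. Apex1 shares 61.7% of its exonic length with Pip4p1 on the other strand, so its counts are uncertain.

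The other glycosylases did not pass. Ogg1 was at 0.13 (SE 0.07, adjusted p = 0.153), Neil2 at 0.32 (SE 0.14), Neil3 at 0.26 (SE 0.30) and Ung, which removes uracil, at 0.12 (SE 0.10). Nor did Fen1 (0.09, SE 0.05), Polb (-0.02, SE 0.03), the sealing ligase Lig3 (-0.06, SE 0.03), its scaffold Xrcc1 (0.07, SE 0.03), Parp1 (0.01, SE 0.02) or Parp2 (0.07, SE 0.04). For Fen1 78.8% and for Lig3 25.1% of the exonic length lies opposite another gene, as do 10.6% for Ogg1, opposite Camk1, and, among the end-joining genes, 7.7% for Xrcc6, opposite Desi1. A p-value that misses the threshold does not show that these levels were equal.

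The Q140 effect was also measured on both mutant Pms1 backgrounds, each against its own Pms1-matched mice without Q140. In Q140 Pms1+/- striatum 15 members (36.6%) passed against Pms1+/-, 11 higher and 4 lower, where 24.9% of all genes passed, 12.8% higher and 12.1% lower. Without composition scaling 24 passed, 23 higher and 1 lower, where 32.4% of all genes passed with a median log2 fold change of 0.06. In Q140 Pms1-/- striatum 7 members (17.1%) passed against Pms1-/-, 5 higher and 2 lower, where 11.1% of all genes passed, 5.59% higher and 5.47% lower. Medium spiny neuron markers moved here too. Their sum was 8313 to 10081 CPM in Q140 Pms1+/- striatum and 11831 to 14031 CPM in Pms1+/- striatum, with 9 of 10 lower and 1 higher, and 9350 to 11238 CPM in Q140 Pms1-/- striatum and 11914 to 14312 CPM in Pms1-/- striatum, with 8 of 10 lower. Neither pair of groups overlapped, and the part of these neurons in the members' changes was not tested.

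Xrcc5 had 19.9, 20.6 and 21.4 CPM in Q140 Pms1+/- striatum and 16.3, 17.2 and 18.8 CPM in Pms1+/- striatum, a log2 fold change of 0.25 (SE 0.04, edgeR adjusted p = 4.44e-07). It had 18.5, 19.6 and 20.3 CPM in Q140 Pms1-/- striatum and 16.0, 16.4 and 17.9 CPM in Pms1-/- striatum, a log2 fold change of 0.22 (SE 0.04, adjusted p = 2.94e-05). Neither pair of groups overlapped, so every Q140 animal exceeded every matched animal on all 3 Pms1 backgrounds. Prkdc rose by 0.24 (SE 0.04) on the Pms1+/- background without overlap, with 71.1, 78.3 and 82.9 CPM in Q140 Pms1+/- striatum and 59.6, 66.5 and 71.0 CPM in Pms1+/- striatum. On the Pms1-/- background it rose by 0.14 (SE 0.04, adjusted p = 0.0112), and there the groups overlapped, at 70.1, 74.2 and 79.5 CPM in Q140 Pms1-/- striatum and 62.3, 66.7 and 74.9 CPM in Pms1-/- striatum.

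Apex1 rose by 0.17 (SE 0.03) on the Pms1+/- background and by 0.15 (SE 0.03) on the Pms1-/- background. On the Pms1-/- background it had 30.9, 31.4 and 33.6 CPM in Q140 Pms1-/- striatum and 27.2, 28.6 and 30.5 CPM in Pms1-/- striatum, without overlap. Atr rose by 0.12 (SE 0.04) on each mutant background, and Ercc3 by 0.14 (SE 0.03) on the Pms1+/- and 0.10 (SE 0.03) on the Pms1-/- background. On the Pms1-/- background the Ercc3 call was lost in 3 of 9 alternative settings, at an edgeR adjusted p of up to 0.0796. The Atr call was lost there in 1 of 9, when the compared groups were fitted alone (edgeR adjusted p = 0.0586). Ercc6 fell by 0.18 (SE 0.03) on the Pms1+/- and by 0.16 (SE 0.03) on the Pms1-/- background, and Ercc1, the nuclease partner of Ercc4, fell by 0.11 on the Pms1+/- and by 0.12 on the Pms1-/- background (SE 0.04 each). The Ercc1 calls were lost in 4 of 9 alternative settings on the Pms1+/- and in 6 of 9 on the Pms1-/- background. Among them, the first code number as a random block gave voom adjusted p-values of 0.0564 on the Pms1+/- and 0.0852 on the Pms1-/- background, and fits without composition scaling gave -0.06 (adjusted p = 0.259) and -0.10 (adjusted p = 0.0899). On the Pms1+/- background Ercc8 (0.21), Rpa2 (0.21), Fen1 (0.20), Ddb2 (0.16), Rad50 (0.14) and Rpa1 (0.11) also rose, and Nbn (-0.14) and Polb (-0.12) fell. The Nbn call was lost in 5 of 9 alternative settings, among them the code block (voom adjusted p = 0.0786), early codes alone (-0.12, adjusted p = 0.112) and no composition scaling (-0.08, adjusted p = 0.214). Polb was at -0.06 (adjusted p = 0.129) without composition scaling and did not pass. Members with groups that did not overlap were Xrcc5 and Prkdc on the Pms1+/- background, where 4.82% of all genes had such groups, and Xrcc5 and Apex1 on the Pms1-/- background, where 1.22% had.

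The direct question of whether losing Pms1 changed these genes in Q140 mice was addressed by Q140 Pms1-/- against Q140. This comparison shares the Q140 animals with Q140 against WT. In striatum 1 member of 41 (2.44%) passed, lower, where 7.1% of all genes passed, 2.03% being lower. It was Xrcc5, with 18.5, 19.6 and 20.3 CPM in Q140 Pms1-/- striatum and 20.1, 21.9 and 23.9 CPM in Q140 striatum, a log2 fold change of -0.17 (SE 0.04, edgeR adjusted p = 0.00156). The groups overlapped between 20.1 and 20.3 CPM, and leaving out any single animal of either group kept the call. With late codes alone, 8 Q140 Pms1-/- and 3 Q140 animals, it was -0.18 and did not pass (adjusted p = 0.0799). Prkdc was at -0.06 (SE 0.04), Atr at -0.05 (SE 0.03), Ercc6 at 0.06 (SE 0.03) and Nbn at -0.09 (SE 0.05), none of which passed. Medium spiny neuron markers summed to 9350 to 11238 CPM in Q140 Pms1-/- striatum and 7912 to 9095 CPM in Q140 striatum. Their part in the Xrcc5 value was not tested. Without Q140, mean Xrcc5 in Pms1-/- striatum was 16.5 CPM in females and 17.1 CPM in males. In WT striatum it was 17.9 CPM in females and 17.4 CPM in males. That comparison did not pass, with 0 of 8 Pms1-/- animals above the WT median. In cortex Xrcc5 passed as lower in Pms1-/- against WT. A lower Xrcc5 level with Pms1 loss was thus not particular to Q140 mice.

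Whether the Q140 effect itself differed between Pms1 backgrounds was tested as a contrast. For Pms1-/- minus intact Pms1, edgeR called 0 of 41 members in striatum, where 5.05% of all genes passed, 6 had an unadjusted p under 0.05 (3614 of 18890 genes), DESeq2 called 1 and limma on FPKM called 2. The lowest adjusted p was 0.0508, for Ercc8, with a difference of -0.20 (SE 0.06). The difference was -0.09 (SE 0.05) for Xrcc5 and -0.16 (SE 0.06, adjusted p = 0.0872) for Prkdc. Neither passed. For Pms1+/- minus intact Pms1, edgeR called 0 of 41, as for all genes (0%), 2 had an unadjusted p under 0.05 (1619 of 18890 genes) and DESeq2, limma and voom called 0. Q140 Pms1+/- against Q140 gave 0 of 41 by edgeR, with 2 at an unadjusted p under 0.05 (1026 of 18890 genes), where 0% of all genes passed, and 0 by DESeq2, limma and voom.

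**Figure D5:**
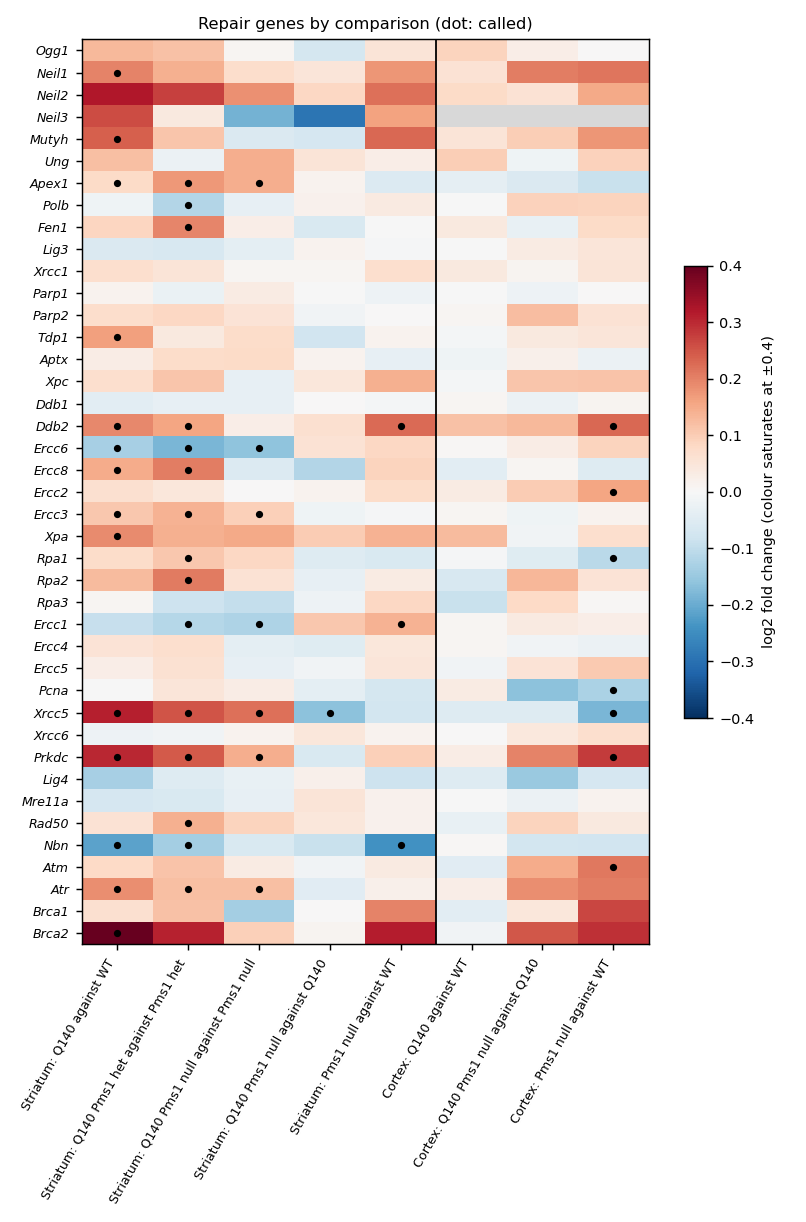
log2 fold change of every member in 8 comparisons, colour saturating at 0.4 either way, red higher and blue lower in the first-named group; a dot marks a member that passed the test and grey was not tested. Dots in the striatal columns of Q140 against its matched group number 14, 15 and 7 of 41, and the cortical Q140 column has none.

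In cortex the same knock-in left the members without a call. edgeR called 0 of 40 members in Q140 against WT, where 0.0428% of all genes passed, 0 had an unadjusted p under 0.05 (1369 of 18711 genes) and DESeq2, voom and limma on FPKM called 0. Xrcc5 had 17.0, 17.6 and 18.6 CPM in Q140 cortex and 17.4, 18.5 and 19.3 CPM in WT cortex, a log2 fold change of -0.05 (SE 0.04), and Prkdc was at 0.03 (SE 0.06). The comparisons of Q140 with its matched group gave 0 of 40 on the Pms1+/- background, where 0.112% of all genes passed, and 0 of 40 on the Pms1-/- background, where 0.0428% passed, by edgeR, DESeq2, voom and limma alike. At an unadjusted p under 0.05 they gave 5 members on the Pms1+/- background, where 2850 of 18711 genes had such a p, and 4 on the Pms1-/- background, where 1399 had. The tests of a difference between Pms1 backgrounds also gave 0 of 40 in cortex by these tools, where 0% of all genes passed, with 1 member at an unadjusted p under 0.05 for Pms1-/- (1020 of all genes) and 2 for Pms1+/- (1525 of all genes).

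The difference of the Q140 effect between tissues was tested in 1 fit over all 96 libraries. It passed for 5 of 41 members (12.2%), where 13.3% of all genes passed, 4.95% higher and 8.32% lower, so the members' share was near the background. The striatal effect exceeded the cortical one for Xrcc5 by 0.35 (edgeR adjusted p = 1.24e-07), for Prkdc by 0.26 (adjusted p = 0.00565) and for Ercc8 by 0.18 (adjusted p = 0.0229). The difference was -0.23 for Nbn (adjusted p = 0.00762) and -0.15 for Ercc6 (adjusted p = 0.0172). The last 2 calls were lost without composition scaling, at -0.15 (adjusted p = 0.102) for Nbn and -0.06 (adjusted p = 0.359) for Ercc6. With the animal as a block, 7 members passed, where 18.1% of all genes did.

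Loss of Pms1 without Q140 was compared in both tissues. In striatum 3 of 41 members (7.32%) passed in Pms1-/- against WT, where 7.91% of all genes passed, 4.01% higher and 3.9% lower. Ddb2 and Ercc1 were higher, with 14.2, 16.8 and 18.5 CPM in Pms1-/- striatum and 12.6, 14.3 and 15.2 CPM in WT striatum for Ddb2. Nbn was lower, with 14.3, 16.5 and 17.3 CPM in Pms1-/- striatum and 16.6, 19.4 and 21.2 CPM in WT striatum. With late codes as a term in the fit Nbn was the member that still passed (-0.24, adjusted p = 0.0256). Markers of other cell types were lower in the same comparison, 2 of 7 endothelial and mural, 2 of 8 microglial and 2 of 6 oligodendrocyte precursor genes. The endothelial and mural sum was 282 to 297 CPM in Pms1-/- striatum and 299 to 333 CPM in WT striatum, without overlap, and the microglial sum was 415 to 429 CPM in Pms1-/- striatum and 427 to 462 CPM in WT striatum. Their part in these values was not tested.

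In cortex 7 of 40 members (17.5%) passed, where 9.58% of all genes passed, 5.31% higher and 4.26% lower. Prkdc (0.28, adjusted p = 0.00227), Ercc2 (0.16, adjusted p = 0.00362), Ddb2 (0.23, adjusted p = 0.0131) and Atm (0.21, adjusted p = 0.0267) were higher. Xrcc5 (-0.18, adjusted p = 0.00284), Rpa1 (-0.11, adjusted p = 0.00893) and Pcna (-0.13, adjusted p = 0.0166) were lower. Prkdc had 38.9, 47.3 and 49.3 CPM in Pms1-/- cortex and 30.1, 38.0 and 44.7 CPM in WT cortex, and Xrcc5 14.5, 16.3 and 18.6 CPM in Pms1-/- cortex and 17.4, 18.5 and 19.3 CPM in WT cortex, with overlap in both. Without the low-count filter Atm was at 0.21 and did not pass (adjusted p = 0.0519). With late codes as a term, 1 of the 7 still passed, Xrcc5 at -0.22 (adjusted p = 0.0127), and Prkdc was at 0.18 (adjusted p = 0.147). Because all 8 Pms1-/- mice and 2 WT mice carry late codes, the code and the genotype cannot be fully told apart. The late-code animals alone, with 2 WT mice, gave 0 calls in either tissue, where 1.73% of all genes passed in cortex and 0.547% in striatum. Their fold changes were -0.19 for Xrcc5 (adjusted p = 0.159), -0.15 for Rpa1 (adjusted p = 0.0883), -0.13 for Pcna (adjusted p = 0.229) and 0.11 for Prkdc (adjusted p = 0.666) in cortex, and -0.23 for Nbn in striatum (adjusted p = 0.189). With late codes alone in cortex Ercc2 was at 0.07 (adjusted p = 0.572), Ddb2 at 0.05 (adjusted p = 0.844) and Atm at 0.04 (adjusted p = 0.905). In striatum Ddb2 was at 0.13 and Ercc1 at 0.18. The late-code fold changes of the 4 genes that were lower with all animals were thus about as large or larger. Those of the genes that were higher in cortex, Prkdc, Ercc2, Ddb2 and Atm, were all smaller. The genes that were higher in striatum were divided. Over 9 alternative settings Ercc1 ranged over 0.09 to 0.18, with late codes alone the highest. Ddb2 ranged over 0.13 to 0.24, with late codes alone the lowest. With 2 WT mice and 0 calls, these sizes cannot tell the code from the genotype. Endothelial and mural markers were also lower for 4 of 7 genes, summing to 248 to 306 CPM in Pms1-/- cortex and 287 to 348 CPM in WT cortex, and their part was not tested.

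Q140 Pms1-/- cortex against Q140 cortex gave 0 of 40 by edgeR, where 0.0107% of all genes passed, with 13 at an unadjusted p under 0.05 (2713 of 18711 genes) and 1 by DESeq2, which called 1.07% of all genes. Pms1+/- against WT gave 0 of 41 in striatum (1 at an unadjusted p under 0.05, and 1882 of 18890 genes) and 0 of 40 in cortex (2, and 1938 of 18711 genes), by edgeR, DESeq2, voom and limma, and 0% of all genes passed in either tissue. Q140 Pms1+/- cortex against Q140 cortex gave 0 of 40 by edgeR, with 4 at an unadjusted p under 0.05 (1065 of 18711 genes) and 0% of all genes called, and 0 by the other tools.

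Males and females differed in 3 of 41 members (7.32%) in striatum, where 6.16% of all genes passed, 2.85% higher and 3.31% lower. Male against female, Atr was higher by 0.10 (SE 0.02, edgeR adjusted p = 0.0028) and Ercc8 by 0.10 (SE 0.03, adjusted p = 0.0136), and Polb was at -0.07 (SE 0.02, adjusted p = 0.0303). With the first code number as a random block Ercc8 (voom adjusted p = 0.0549) and Polb (voom adjusted p = 0.0797) did not pass, nor did Polb without composition scaling (-0.05, adjusted p = 0.0694). In cortex edgeR called 0 of 40, where 5.36% of all genes passed, with 14 at an unadjusted p under 0.05 (3843 of 18711 genes), 2 by DESeq2 and 1 by limma on FPKM. The difference of the Q140 effect between males and females gave no call by edgeR, DESeq2, limma or voom in striatum (0 of 41, 1 at an unadjusted p under 0.05, and 1221 of 18890 genes) or cortex (0 of 40, 5 at an unadjusted p under 0.05, and 2125 of 18711 genes). Of all genes 0% passed that test in striatum and 0.0267% in cortex.

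Genes of the same pathways outside the 41 were counted for context. Of 70 further repair genes tested in striatum, 22 (31.4%) passed in Q140 against WT, 16 higher and 6 lower, against 31.3% of all genes, with a median log2 fold change of 0.03. In base excision the glycosylases Mpg (0.24), Nthl1 (0.24) and Smug1 (0.23) rose and Mbd4 (-0.16) fell. In nucleotide excision the clamp loader subunit Rfc2 (0.24), the XPC partner Cetn2 (0.22) and Rfc1 (0.10) rose, and Rfc5 (-0.41), Gtf2h2 (-0.10) and Cdk7 (-0.08) fell. In break repair Chek2 (0.46), a checkpoint kinase, Rbbp8 (0.43), which starts end resection, and Xrcc3 (0.24) rose, while the histone H2afx (-0.30) and the ubiquitin ligase Rnf8 (-0.13) fell. In Q140 Pms1-/- against Q140 striatum 7 of the 70 (10%) passed, where 7.1% of all genes did. Higher were Rfc5 (0.23), Rnf8 (0.21), H2afx (0.19), Rad52 (0.17) and Mbd4 (0.15), and lower were Xrcc2 (-0.18) and Rnf168 (-0.10). In cortex Q140 against WT gave 0 of 70 by edgeR, with 2 at an unadjusted p under 0.05.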

How the data were processed

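RNA from dissected cortex and striatum was prepared with a stranded Illumina TruSeq protocol, per the labels' protocols. The submitters' processing notes name HTSeq 0.12.3, SAMtools 1.10 and STAR 2.7.5c with GRCm38 (mm10), and no source used here states the strand setting of the counting. The authors deposited raw read counts per gene and FPKM values per gene for each library, with no sample column left unmapped. Members were read by gene name, and coordinates are those of GENCODE M21.

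For each tissue, edgeR 4.0.16 (R 4.3.3) fitted all 48 libraries with genotype and sex, TMM scaling, its low-count filter and the robust quasi-likelihood test, with Benjamini-Hochberg adjustment over all genes tested and a threshold of 0.05. Contrasts between tissues came from a fit of all 96 libraries. CPM are TMM-scaled counts, without a prior count. Alternatives used DESeq2 1.42.0, limma 3.58.1 on log2(FPKM + 0.1), voom with the first code number as a random block, other scaling and filters, subsets of codes and leaving out animals. The edgeR fit of Q140 against WT in striatum was tested on simulated counts, drawn without any effect of the codes. Recovery was required there only for folds larger than those of the members called in that comparison. Python 3.11.15 with pandas 2.3.3 and matplotlib 3.10.9 made tables and plots. The 250 bases before each start came from RefSeq, which matched 33 of 41 members.

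Both tissues came from the same animals, as the codes in the titles show. The deviations of an animal's libraries from their group means correlated with a median r of 0.115, the lowest being 0.0395, and 32 of 48 exceeded 0.1 and 42 matched best within their own animal. P-values cover the spread between animals. The rule for genes given with full values was at most 15 called members, the 5 members with the largest regional difference each way, and the highest and lowest member of each pathway by FPKM. Of the wider repair genes, up to 3 risen and 3 fallen per list with a mean of at least 1 CPM were named. The members, lists and tests were chosen with earlier results of these data known.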

Additional observations from a re-analysis of the deposited data

Results flagged for a closer look

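Libraries far from the others of their group, by Dixon's criterion, were found in 17 of 264 groups of 8 animals (6.44%), where chance flags about 1 in 20. Apex1 gave 5 of them: a highest animal at 25.2 CPM in Pms1-/- cortex, 25.7 CPM in Q140 Pms1+/- cortex, 33.6 CPM in Q140 Pms1-/- striatum and 31.1 CPM in Pms1+/- striatum, and a lowest animal at 21.7 CPM in Q140 cortex. Rpa1 stood apart at 47.2 CPM as the highest animal in Q140 Pms1-/- cortex and at 42.2 CPM as the lowest in Q140 cortex. Rpa2 stood apart at 10.1 CPM as the lowest animal in Q140 striatum and at 12.6 CPM as the highest in Pms1-/- striatum. The lowest animal for Fen1 was at 11.8 CPM in Pms1-/- cortex and at 9.82 CPM in WT cortex.

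A single male Q140 mouse, replicate 8, accounted for 4 of these values: Apex1 at 21.7 CPM, Atr at 25.5 CPM and Ercc6 at 52.2 CPM in cortex, and Rpa2 at 10.1 CPM in striatum. A male Pms1-/- mouse, replicate 1, gave the lowest cortical values of Prkdc, 38.9 CPM, and of Ddb2, 15.9 CPM. Brca1 had a lowest animal at 4.47 CPM in Q140 striatum, and Brca2 a highest animal at 9.30 CPM in Q140 Pms1-/- striatum.

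The Q140 effect differed between striatum and cortex, by a test of the difference itself, for 5 of 41 members. Of all genes 13.3% passed that test, so the members' share was near the background. The striatal minus the cortical log2 fold change was 0.35 for Xrcc5, 0.26 for Prkdc, 0.18 for Ercc8, -0.15 for Ercc6 and -0.23 for Nbn. The Ercc6 and Nbn calls were lost without composition scaling, at -0.06 and -0.15, and by limma on log2(FPKM + 0.1), at -0.07 and -0.14.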

How the results depend on the processing

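In striatum, Q140 against WT called 14 members and 28 without composition scaling or by limma on FPKM (27 higher, 1 lower by each), 2 with late codes alone and 12 to 16 when an animal was left out. There Brca2 and Neil1 turned to -0.044 and -0.082 with late codes alone. Q140 Pms1+/- against Pms1+/- called 15, against 25 by limma on FPKM and 24 without composition scaling. In both comparisons the share of all genes that passed was also higher without composition scaling, as given above. A changed count is therefore not a result about the members alone. Q140 Pms1-/- against Pms1-/- called 7, and 4 when fitted alone. Q140 Pms1-/- against Q140 called 1, 0 with late codes alone, 2 by limma on FPKM and without composition scaling, and 1 to 2 when an animal was left out. Pms1-/- against WT called 3, 5 by DESeq2 and without composition scaling, 1 with late codes as a term and 0 with late codes alone. In cortex it called 7, 1 with late codes as a term and 0 with late codes alone, where 9.58%, 1.57% and 1.73% of all genes passed. The difference of the Q140 effect between Pms1-/- and intact Pms1 in striatum called 0, 1 by DESeq2, and 2 by limma on FPKM and without composition scaling. Male against female called 3 in striatum, 6 by limma on FPKM, 8 without composition scaling and 1 by voom, and in cortex 0, 2 by DESeq2, 1 by limma on FPKM and 1 without composition scaling. Q140 Pms1-/- against Q140 in cortex called 0, and 1 by DESeq2, where 0.0107% and 1.07% of all genes passed. The difference of the Q140 effect between tissues called 5, 10 by limma on FPKM, 11 without composition scaling, and 7 with the animal as a replicate block. Of all genes 13.3%, 21.7%, 21.5% and 18.1% passed in those fits. The replicate block gave 33 regional calls against 34 without it, where 78% and 76% of all genes passed. Several counts under alternative fits, here and above, are given without the share of all genes called in that fit. Their changes are therefore not read as results about the members. The causes were not tested. Counting error bears most on members of few reads, such as Neil3 and, in striatum, Neil2.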
